A study of Mus musculus with 6 samples.

Results

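The 32 genes described here are targets and regulators of the sterol regulatory element binding proteins (SREBPs) in cholesterol and fatty acid synthesis. They were chosen by name, without a rule on their values, from the 23420 genes listed for the embryonic mouse lung. Earlier results of these data were known when the choice was made. The symbols of 31 matched directly, and *Msmo1* was found under its older symbol *Sc4mol*. They form a sterol branch of 19 genes, a fatty acid branch of 9 genes and 4 SREBP regulators, and each branch was compared separately between control and mutant lungs.

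The study addressed the role of mTORC1, the growth-promoting kinase complex that needs the scaffold protein Raptor, in the developing lung. RNA was sequenced from whole lungs at stage E11.5dpc (days post coitus) in 3 samples of the genotype Raptorf/+; ShhCre/+ (control) and 3 samples of the genotype Raptorf/f; ShhCre/+ (mutant). Each sample was a pool of 3 or 4 lungs. The controls were littermates that carried 1 floxed Raptor allele, and both groups carried ShhCre. Since ShhCre is active broadly in the lung epithelium, Raptor was deleted there and not in the mesenchyme, vessels or blood cells that a whole lung also holds.

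SREBPs are made as precursors in the membrane of the endoplasmic reticulum. SCAP carries them to the Golgi for cleavage, and INSIG proteins hold the complex back when sterols are plentiful. The released fragments enter the nucleus and bind sterol regulatory elements in the promoters of lipid synthesis genes, often beside sites for the factors NF-Y and Sp1. SREBF2 acts mainly on cholesterol genes and SREBF1 mainly on fatty acid genes, and mTORC1 is known to promote SREBP activity in several cell types.

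Promoter sequences are shown for 3 enzymes so that the binding letters can be read beside the values. Among the 25 members with a searched promoter, *Hmgcs1* is the only one in which a sterol regulatory element was matched. *Idi1* is the sterol gene with the lowest p, and *Fasn* is a classic fatty acid target. Each line holds the 250 bases before a RefSeq transcription start on GRCm38.p6, written 5′ to 3′ on the strand of the gene. Capitals mark matches on either strand to a sterol regulatory element (TCACNCCAC), an NF-Y box (CCAAT, or ATTGG on the other strand) or a GC box bound by Sp1 (GGGCGG, or CCGCCC on the other strand). The stretches are chr13:119690101-119690350 on the plus strand for *Hmgcs1*, chr13:8885356-8885605 on the plus strand for *Idi1* and chr11:120824548-120824797 on the minus strand for *Fasn*.
Hmgcs1: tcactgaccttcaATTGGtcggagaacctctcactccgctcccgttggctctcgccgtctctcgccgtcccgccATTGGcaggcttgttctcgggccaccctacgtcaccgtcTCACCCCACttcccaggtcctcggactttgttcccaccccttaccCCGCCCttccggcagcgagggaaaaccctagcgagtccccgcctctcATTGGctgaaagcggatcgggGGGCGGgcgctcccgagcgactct
Idi1: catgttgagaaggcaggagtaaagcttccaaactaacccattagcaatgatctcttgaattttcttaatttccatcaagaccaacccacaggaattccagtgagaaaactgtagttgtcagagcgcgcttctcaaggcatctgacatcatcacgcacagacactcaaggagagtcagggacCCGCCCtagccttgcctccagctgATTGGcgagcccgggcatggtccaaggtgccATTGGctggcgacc
Fasn: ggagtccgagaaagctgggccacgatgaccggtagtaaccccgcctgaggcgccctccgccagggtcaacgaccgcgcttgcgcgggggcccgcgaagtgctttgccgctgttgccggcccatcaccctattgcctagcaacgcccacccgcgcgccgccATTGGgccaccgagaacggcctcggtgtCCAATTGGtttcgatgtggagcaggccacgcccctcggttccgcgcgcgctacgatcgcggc

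The *Hmgcs1* stretch held 1 sterol regulatory element, 3 NF-Y boxes and 2 GC boxes. The *Idi1* stretch held 2 NF-Y boxes and 1 GC box. The *Fasn* stretch held 3 NF-Y boxes, of which a pair on opposite strands overlap, and no match to the other motifs. A promoter from 250 bases before to 50 bases after the start was matched for 25 of the 32 members, which had 31 such promoters. The sterol element was matched in 1 of these 31 promoters (3.23%) and in 1.24% of all 32851 mouse promoters. An NF-Y box was present for 20 of the 25 genes (80%), against 41.1% of all 27025 genes with a promoter. A GC box was present for 21 of the 25 genes (84%), against 38.2% of all genes. These are matches of letters in a window, not binding sites. The sterol element was searched only as the fixed pattern TCACNCCAC, so elements that differ from it or lie outside the window were not counted. A promoter without a match is thus not shown to lack such an element. No promoter was searched for *Fads1*, *Scd1*, *Fdft1*, *Scd2*, *Stard4*, *Fdps* and *Sqle*. Member promoters on chromosome 18, where *Stard4* lies, were left out, while the shares of all genes keep that chromosome.

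Expression was read from normalized counts, in which the reads of a gene are scaled by 1 factor per library and which summed to 20705058 to 20865998 per library. Each gene was compared on log2(normalized count + 1) with limma, and p-values were adjusted over the 17168 genes that reached 1 normalized count in 3 or more libraries. All 32 members passed that filter. Fold changes on this scale understate differences of genes with low counts. The labels do not say that the pools came from separate litters, so p-values measure the spread between pools. With 3 pools a group, the smallest two-sided exact permutation p of a single gene is 0.1, and the fit across all genes was used instead. *Rptor*, which encodes Raptor, was 2126, 2193 and 2279 in the control pools and 2023, 2137 and 2148 in the mutant pools. Its groups overlapped at a log2 fold change of -0.06, for which limma gave an adjusted p of 0.584, and this count covers the whole gene in whole lungs, cells without Cre included.

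Cell type markers differed between the groups, and every member is read from the same RNA. Of 22 epithelial markers, 21 were lower in the mutant pools and 7 passed the adjusted threshold, with a median log2 fold change of -0.47. Single markers differed widely, from -0.97 (*Cdh1*) to 0.44 (*Krt19*, the marker that was higher), so they did not shift by a common amount. The summed level of the 22 markers was 20086 to 24655 in control pools and 16205 to 17389 in mutant pools. All 11 mesenchymal markers were higher and 4 passed, with sums of 108962 to 115580 and 131695 to 138989. No epithelial or mesenchymal marker was at 0, and the lung epithelial factor *Nkx2-1* was at 1977 to 2686 in the 6 pools. Sums were 12773 to 14581 in control and 14924 to 15465 in mutant pools for 8 endothelial markers, 1681 to 2540 and 2273 to 2346 for 7 macrophage markers, and 96207 to 124178 and 95445 to 118774 for 8 erythroid markers, of which *Hba-a1* and *Hba-a2* were listed at 0. They were 972 to 1098 and 703 to 824 for 7 cardiac markers, 1875 to 2026 and 1538 to 1964 for 6 neural markers, and 2683 to 3119.9 and 3275 to 3576 for 4 mesothelial markers. Fewer cells of a type and less RNA per cell cannot be told apart in whole lungs.

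The sex makeup of the pools is not given in the labels. *Xist*, expressed from the inactive X chromosome of female cells, read 4599 in control pool 1, 309 in pool 2 and 12989 in pool 3, against 41.9, 466 and 161 across the mutant pools. The Y-linked *Ddx3y* was 735 in control pool 3 and 1016 to 1212 in the other pools. The part of cell makeup in the members' values was not tested.

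No member of the SREBP set passed the adjusted threshold of 0.05 in limma, where 86 of the 17168 tested genes did (0.501%). Of the 32 members, 22 had a negative log2 fold change (mutant minus control) and 10 a positive one, where 50.5% of all tested genes were negative. Their median was -0.06, with a range from -0.22 to 0.11, and the median of all tested genes was -0.00. At an unadjusted p under 0.05, 6 members were lower (18.8%) and 0 higher, against 6.89% of all tested genes lower and 6.67% higher (13.6% in either direction). In 7 members every mutant pool lay below every control pool (21.9%), against 10.5% of all tested genes. In 0 members every mutant pool lay above, against 9.77% of all tested genes. The 95% intervals of the 32 members together reached from -0.40 to 0.36, and 26 of them included 0.

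These counts changed when single control pools were left out. Without control pool 3, 30 of the 32 members had a negative log2 fold change and 13 had an unadjusted p under 0.05, against 16.9% of all genes in that fit. Without control pool 2, 16 of the 32 were negative and 3 had an unadjusted p under 0.05, against 16.1% of all genes. With any of control pool 1 or mutant pools 1, 2 or 3 left out, 2 or 3 members had an unadjusted p under 0.05, against 9.2% to 10.9% of all genes in those fits, which is no larger a share of the 32. No member passed the adjusted threshold of limma in any of these 6 fits. With the log2 *Xist* value as a covariate, 31 of the 32 were negative and 9 had an unadjusted p under 0.05, against 10.7% of all genes.

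**Figure D1:**
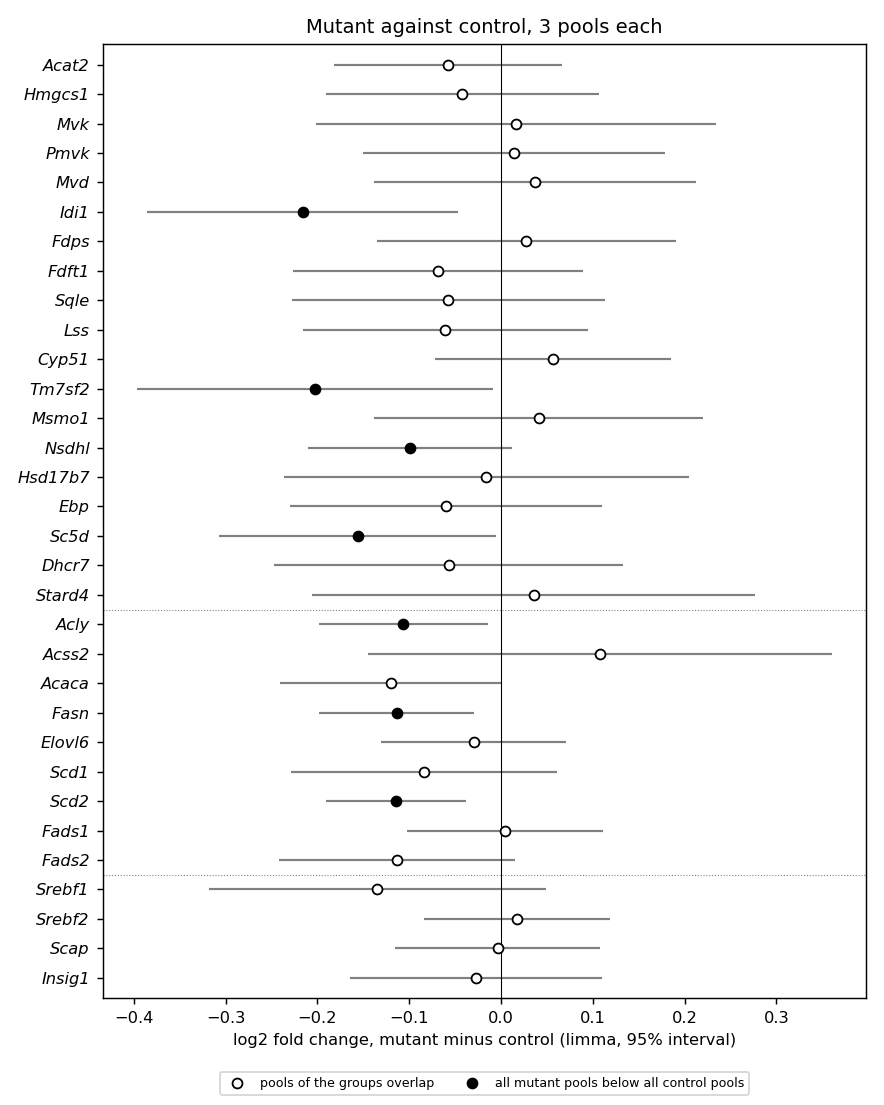
The horizontal axis gives the log2 fold change of each of the 32 genes, mutant minus control with 3 pools each, and the line through each point is its 95% interval from limma. Filled points mark the 7 genes in which all mutant pools lay below all control pools, dotted lines separate the sterol branch, the fatty acid branch and the regulators, and the points run from -0.22 (*Idi1*) to 0.11 (*Acss2*).

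In the sterol branch, 12 of the 19 genes had a negative and 7 a positive log2 fold change, with a median of -0.06. *Idi1*, *Tm7sf2* and *Sc5d* had an unadjusted p under 0.05 (15.8%, all lower), and these and *Nsdhl* had mutant pools that all lay below the control pools (21.1%). The shares of all tested genes were 6.89% and 10.5%. The count of 3 was 9 without control pool 3, 1 without control pool 1, mutant pool 1 or mutant pool 2, and 0 without control pool 2 or mutant pool 3. The median was -0.11 without control pool 3 and 0.03 without control pool 2.

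The first steps of the mevalonate pathway join acetyl units and phosphorylate the product. *Acat2*, an acetoacetyl-CoA thiolase, had a log2 fold change of -0.06 (95% interval -0.18 to 0.07). *Hmgcs1*, the HMG-CoA synthase whose promoter carries the sterol element shown above, was 6473, 7114 and 5732 in the control pools (1, 2 and 3, as in all such lists) and 6252, 6341 and 6100.2 in the mutant pools. Control pools 2 and 3 lay on either side of all mutant pools. The log2 fold change of *Hmgcs1* was -0.04 (standard error 0.07, 95% interval -0.19 to 0.11, limma adjusted p = 0.833). *Hmgcs1* shares 12.1% of its exon length with *Gm48342* on the other strand, so its count is uncertain if counting did not use strand. *Mvk* (mevalonate kinase) was 1114, 1308 and 944 in the control pools and 1089, 1127 and 1160.2 in the mutant pools. Again control pool 2 was the highest and control pool 3 the lowest of the 6, and the log2 fold change was 0.02 (95% interval -0.20 to 0.23). *Pmvk*, the next kinase, had a log2 fold change of 0.01 (-0.15 to 0.18). *Mvd*, the decarboxylase after it, was 875, 897 and 725 in the control pools and 849, 846 and 855 in the mutant pools. Only control pool 3 stood apart in *Mvd*, and the log2 fold change was 0.04 (-0.14 to 0.21).

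*Idi1*, the isomerase that makes dimethylallyl pyrophosphate, had the lowest log2 fold change of the 32 genes. Its normalized count was 657, 733 and 610.3 in the control pools and 597, 567 and 555 in the mutant pools. All mutant pools lay below all control pools, with mutant pool 1 close to control pool 3. The log2 fold change was -0.22 (standard error 0.08, 95% interval -0.39 to -0.05), with a limma adjusted p of 0.242. In edgeR on the recovered reads of the 5 libraries without control pool 3, *Idi1* had a log2 fold change of -0.28 and an adjusted p of 0.0436, and it was the only member past the threshold, which 3.68% of 14791 genes passed. In limma with 1 pool left out at a time, the adjusted p of *Idi1* ran from 0.054 to 0.572. The exons of *Idi1* share 9.22% of their length with a transcript on the other strand (*Gm48574*), and whether counting used strand is not given in the sources used here.

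*Fdps*, which makes farnesyl pyrophosphate at the branch point between sterols and other isoprenoids, was 2091, 2077 and 1707 in the control pools and 2045, 1966 and 1953 in the mutant pools. Control pool 3 was the lowest of the 6 and the groups overlapped, with a log2 fold change of 0.03 (95% interval -0.14 to 0.19). *Fdps* shares 26.7% of its exon length with *Gm43738* on the same strand, and *Fdft1* shares 18.3% with *Ctsb* on the other strand, so both counts are uncertain. *Fdft1* (squalene synthase) had a log2 fold change of -0.07 (-0.23 to 0.09). *Sqle*, squalene epoxidase, was 3174, 3530.1 and 2755 in the control pools and 2970.3, 3133 and 2945 in the mutant pools. The control pools enclosed the mutant pools, and the log2 fold change was -0.06 (-0.23 to 0.11). *Lss*, which folds squalene epoxide into lanosterol, had a log2 fold change of -0.06 (-0.22 to 0.09). *Cyp51*, the lanosterol demethylase, was 3082, 3335 and 2920.3 in the control pools and 3439, 3136 and 3133 in the mutant pools. The groups overlapped, and its log2 fold change of 0.06 (-0.07 to 0.19) was the highest of the sterol branch.

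Among the enzymes that turn lanosterol into cholesterol, *Tm7sf2*, *Nsdhl* and *Sc5d* had no overlap between the groups. *Tm7sf2*, a sterol C14 reductase, was 259, 281 and 250.5 in the control pools and 227, 229 and 229.7 in the mutant pools. The mutant pools were close to each other (SD 1.58) and the control pools less so (SD 15.7), with a log2 fold change of -0.20 (95% interval -0.40 to -0.01, limma adjusted p = 0.344). *Tm7sf2* shares 12.1% of its exon length with *Vps51* on the same strand, so its count is uncertain. *Nsdhl*, a sterol dehydrogenase encoded on the X chromosome, was 934, 959.7 and 924 in the control pools and 889, 868 and 875 in the mutant pools. Its log2 fold change was -0.10 (-0.21 to 0.01, limma adjusted p = 0.418). *Sc5d*, a sterol desaturase, was 885, 829 and 752 in the control pools and 746, 748 and 715 in the mutant pools. Control pool 3 lay just above mutant pools 1 and 2, and the log2 fold change was -0.16 (-0.31 to -0.01, limma adjusted p = 0.351).

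The other enzymes of this stretch overlapped between the groups. *Msmo1*, a C4 methyl oxidase, was 1666, 1773 and 1385 in the control pools and 1644, 1698 and 1595 in the mutant pools, which the control pools enclosed. *Hsd17b7*, a sterol ketoreductase, was 967, 1004 and 758 in the control pools and 925, 928 and 829 in the mutant pools. *Dhcr7*, which carries out the last reduction to cholesterol, was 1648, 1807 and 1369 in the control pools and 1501, 1559 and 1547 in the mutant pools. In all 3 genes control pool 2 was the highest and control pool 3 the lowest of the 6, and the log2 fold changes were 0.04 (95% interval -0.14 to 0.22), -0.02 (-0.24 to 0.20) and -0.06 (-0.25 to 0.13) in that order. *Ebp*, an X-linked sterol isomerase, had a log2 fold change of -0.06 (-0.23 to 0.11). *Stard4*, a sterol carrier in the cytosol, was 775, 980.4 and 723 in the control pools and 882, 888 and 755 in the mutant pools. Its groups overlapped, with a log2 fold change of 0.04 (-0.21 to 0.28).

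The sterol genes varied together across the control pools. This was looked for after their values were seen. Control pool 2 was the highest of the 6 pools in 15 of the 19 sterol genes (78.9%, against 19.3% of all tested genes), and control pool 3 was the lowest in 12 (63.2%, against 24.3%). Both held in 10 of the 19 (52.6%, against 6.28%). A high control pool 2 was not particular to the sterol genes, since it was also the highest in 16 of the 22 epithelial markers (72.7%), 5 of the 9 fatty acid genes (55.6%) and 4 of the 4 regulators. Control pool 3 was the lowest in 2 of the 22 epithelial markers (9.09%), 2 of the 9 fatty acid genes (22.2%) and 2 of the 4 regulators. In 16 of these 22 markers all mutant pools lay below all control pools, so control pool 3 could not be the lowest there. The mean log2 difference of the 19 genes from their 6-pool mean was 0.05, 0.14 and -0.12 in the control pools and -0.01, -0.01 and -0.04 in the mutant pools. Its range among the control pools was 0.26, while the mean difference between mutant and control pools was -0.05. The epithelial markers had the same order of control pools, at 0.22, 0.32 and 0.06, with a range of 0.26. A low control pool 3 among the controls was therefore not particular to the sterol genes. The SD of normalized counts was larger in control than in mutant pools for 17 of the 19 genes (89.5%, against 62.3% of all tested genes). The same held for 9 of the 9 fatty acid genes, 19 of the 22 epithelial markers (86.4%) and 3 of the 4 regulators. These SDs are of unlogged counts, so they also depend on the level of a gene in each group. On the log2 scale, the median SD of the sterol genes was 0.16 in control and 0.05 in mutant pools, against 0.12 and 0.09 for all tested genes. Control pool 3 also had the highest *Xist* and control pool 2 the lowest *Xist* of the controls. With log2 *Xist* as a covariate, the median of the sterol branch was -0.20, and 6 of the 19 were lower at an unadjusted p under 0.05. That fit was added after seeing the data, and *Xist* was itself high only in 2 control pools, so it is partly confounded with genotype.

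**Figure D2:**
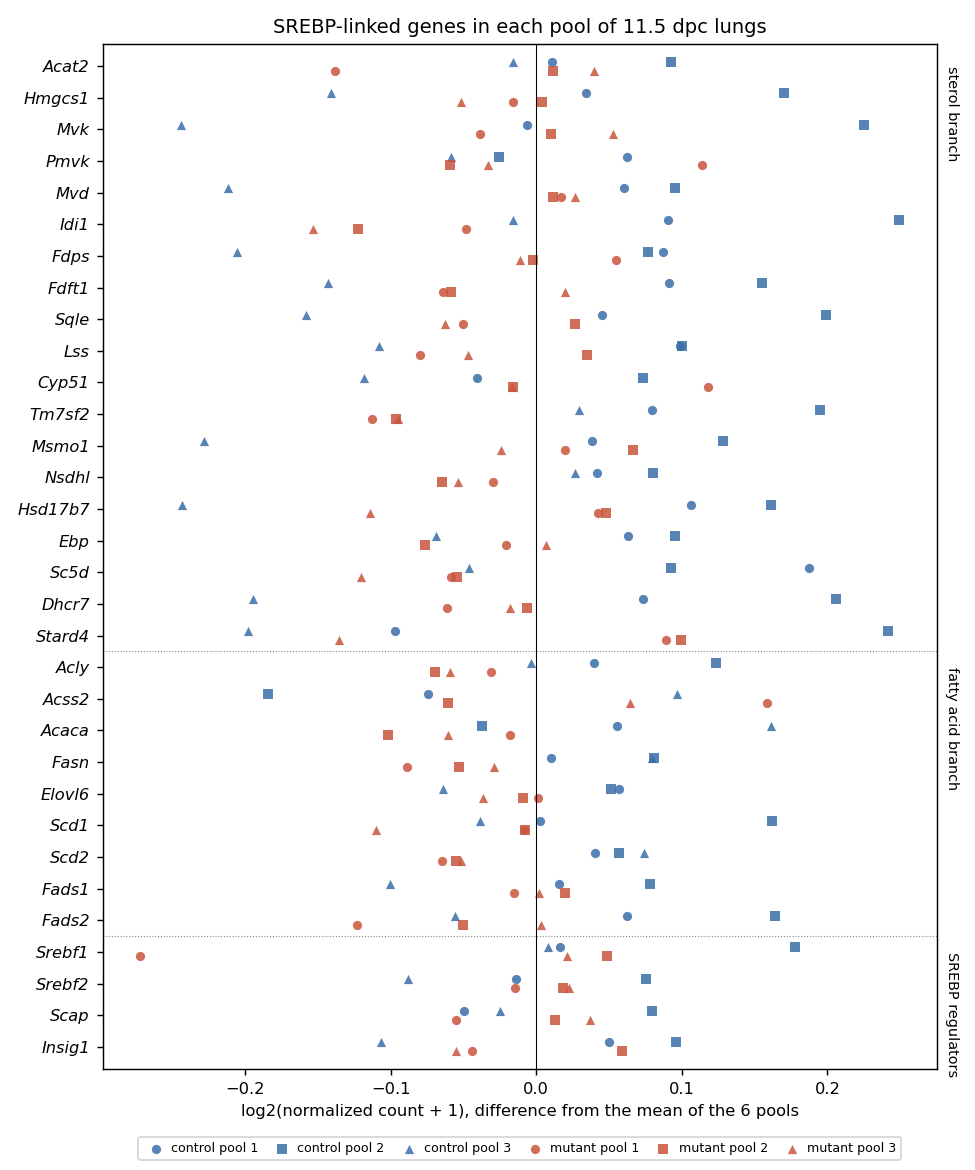
Each point is 1 pool, and the horizontal axis gives log2(normalized count + 1) as a difference from the mean of the 6 pools for each gene (blue, control; red, mutant; circle, square and triangle for pools 1, 2 and 3). Among the sterol genes control pool 2 sits at the right end in 15 of 19 and control pool 3 at the left end in 12 of 19, with the mutant pools mostly between them.

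In the fatty acid branch, 7 of the 9 genes had a negative and 2 a positive log2 fold change, with a median of -0.11. *Acly*, *Fasn* and *Scd2* had an unadjusted p under 0.05 and mutant pools that all lay below the control pools (33.3% of the branch, against 6.89% and 10.5% of all tested genes). None passed the adjusted threshold, and the lowest adjusted p of limma was 0.186. Leaving out 1 pool at a time gave 2 to 4 genes lower at an unadjusted p under 0.05. The median was -0.06 without control pool 2. Limma without the trend of variance on level gave 1 such gene in place of 3.

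*Acly*, the ATP citrate lyase that supplies cytosolic acetyl-CoA, was 7706, 8169.7 and 7478 in the control pools and 7337, 7147 and 7198 in the mutant pools. Mutant pool 1 came near to control pool 3, and the log2 fold change was -0.11 (standard error 0.04, 95% interval -0.20 to -0.01, limma adjusted p = 0.299). *Acss2*, which makes acetyl-CoA from acetate, was at 160.1 to 195 in the control pools and 175 to 203 in the mutant pools. Its log2 fold change of 0.11 was the highest of the 32 and its interval the widest (-0.14 to 0.36). *Acaca*, the carboxylase that makes malonyl-CoA, was 2804, 2629 and 3018 in the control pools and 2665, 2514 and 2587 in the mutant pools. Its groups overlapped through control pool 2, which was below mutant pool 1, and the log2 fold change was -0.12 (-0.24 to 0.00, limma adjusted p = 0.369).

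*Fasn*, the fatty acid synthase, was 11764, 12356 and 12349 in the control pools and 10989, 11265 and 11452 in the mutant pools. The groups did not overlap, and the log2 fold change was -0.11 (standard error 0.04, 95% interval -0.20 to -0.03, limma adjusted p = 0.219). *Scd2*, a stearoyl-CoA desaturase, was 28499, 28822 and 29169.9 in the control pools and 26494, 26671 and 26736 in the mutant pools. The pools of each group lay within a narrow band, with a mean of 28830.5 ± 335 (SD, n = 3) for control and 26634 ± 125 (SD, n = 3) for mutant lungs. The log2 fold change of *Scd2* was -0.11 (standard error 0.03, 95% interval -0.19 to -0.04), a mean that differed by -7.62%, and its limma adjusted p was 0.186. Leaving out 1 pool at a time moved the log2 fold change of *Scd2* between -0.12 and -0.11 and its adjusted p between 0.089 and 0.50. *Scd1*, its paralog, was 938, 1048 and 911 in the control pools and 931, 931 and 868 in the mutant pools. The groups overlapped, with a log2 fold change of -0.08 (-0.23 to 0.06).

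*Elovl6*, *Fads1* and *Fads2*, which lengthen or desaturate fatty acids, overlapped between the groups, unlike *Scd2*. *Elovl6*, which elongates palmitate, had a log2 fold change of -0.03 (95% interval -0.13 to 0.07). *Fads2*, the delta-6 desaturase, was 4311, 4626 and 3972 in the control pools and 3792, 3988 and 4138 in the mutant pools. Control pool 3 lay among the mutant pools, and the log2 fold change was -0.11 (-0.24 to 0.02). *Fads1*, the delta-5 desaturase, was 5553, 5799.8 and 5123 in the control pools and 5435, 5570.0 and 5501 in the mutant pools. The control pools enclosed the mutant pools, and the log2 fold change was 0.00 (-0.10 to 0.11).

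Pool by pool, the fatty acid branch was tighter than the sterol branch. The mean log2 difference of the 9 genes from their 6-pool mean was 0.02, 0.06 and 0.02 in the control pools and -0.02, -0.04 and -0.03 in the mutant pools. The control pools spanned 0.04, against 0.26 for the sterol branch, and all of them lay above the mutant pools. Control pool 3 was the lowest of the 6 in 2 of the 9 genes (22.2%, against 24.3% of all tested genes), and control pool 2 the highest in 5 (55.6%, against 19.3%). The mean difference between mutant and control pools was -0.06 for the fatty acid branch, -0.05 for the sterol branch and -0.40 for the epithelial markers. Among the other lipid lists given below, the isoprenoid genes and the further fatty acid genes also had all control pools above all mutant pools. Their control means ran from 0.01 to 0.05 and from 0.03 to 0.12. Their mutant means ran from -0.04 to -0.01 and from -0.10 to -0.05, in that order. The remaining lipid lists overlapped. No test was run on these means, since the genes share their pools.

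**Figure D3:**
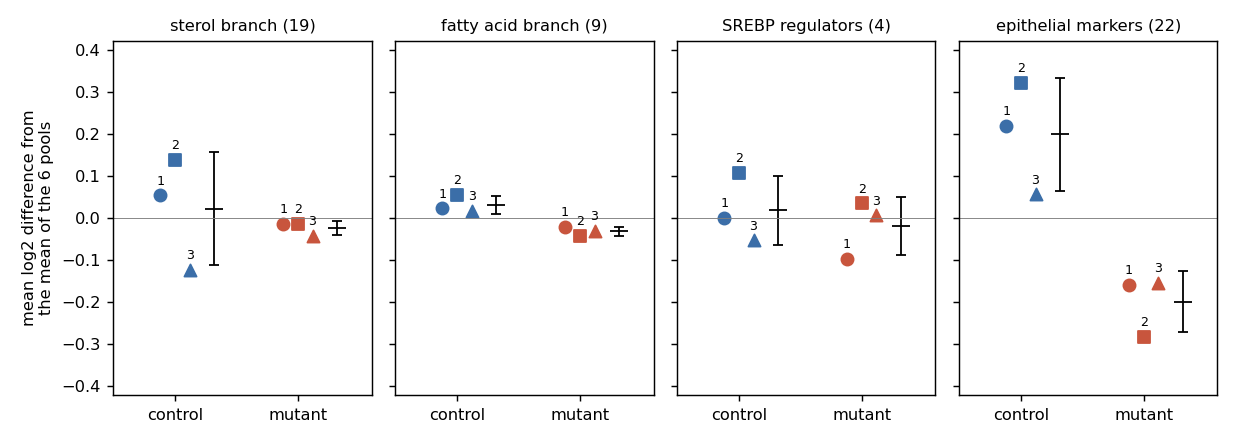
The vertical axis gives the mean, over the genes of each list, of the log2 difference from the mean of the 6 pools. Numbered points are single pools and the bars beside them are the mean and SD of 3 pools. The control pools of the sterol branch run from -0.12 to 0.14 and enclose the mutant pools, those of the fatty acid branch run from 0.02 to 0.06 and lie above them, and the epithelial markers lie at 0.06 to 0.32 in control and -0.28 to -0.15 in mutant pools.

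The 4 regulators had a median log2 fold change of -0.02, and 0 of 4 reached an unadjusted p under 0.05, against 13.6% of all tested genes in either direction. *Srebf1*, which encodes the SREBP of the fatty acid branch, was 2368, 2649 and 2355 in the control pools and 1939, 2422 and 2376 in the mutant pools. Mutant pool 1 was the lowest and the other mutant pools lay within the control range, with a log2 fold change of -0.13 (95% interval -0.32 to 0.05, limma adjusted p = 0.510). *Srebf2*, which encodes the SREBP of the sterol branch, was 6366, 6772 and 6045 in the control pools and 6362, 6509 and 6526 in the mutant pools. The control pools enclosed the mutant pools, and the log2 fold change was 0.02 (-0.08 to 0.12). *Scap*, the escort protein, had a log2 fold change of -0.00 (-0.12 to 0.11), and *Insig1*, the retention protein that is itself a sterol target, had -0.03 (-0.16 to 0.11). *Scap* shares 13.2% of its exon length with *5830462I19Rik* on the other strand. Transcript levels do not report on cleavage of the proteins.

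Levels between genes were compared as normalized counts per kb of annotated exon (GENCODE M21, GRCm38). *Scd2* was the most abundant at 5276 ± 61.4 per kb (SD, n = 3) in control and 4874 ± 22.9 in mutant lungs. *Acly* (1475 ± 66.8 in control lungs), *Hmgcs1* (1402 ± 151) and *Fads2* (1306 ± 99.3) followed, and these 3 overlapped their neighbours in this order within 1 SD, but not *Scd2*. *Fads1* (1141 ± 71.2) and *Fasn* (1110.5 ± 31.0) also lay within 1 SD of each other. *Scd1* was at 197 ± 14.7 per kb in control lungs, far below its paralog *Scd2*. *Srebf2* was at 890.1 ± 50.7 and *Srebf1* at 436 ± 29.5 in control lungs, which do not overlap. *Lss* (77.4), *Tm7sf2* (59.9) and *Acss2* (17.3) were the lowest. The length joins the exons of all annotated transcripts, and was 10787, 4403 and 10163 bases for these genes in that order. A gene with annotated exons that are not used in the lung reads too low on this scale, so these ranks depend on the length used. *Scd2* lies on chromosome 19 from 44293674 to 44306864 and *Scd1* from 44394455 to 44407879. Reads that fit both paralogs could be split between them, so the smaller values of *Scd1* are less certain.

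Other lipid genes were read from 6 lists with 85 genes around the members, and none passed the adjusted threshold of limma. At an unadjusted p under 0.05, 11 of the 85 were lower and 3 higher, and in 16 all mutant pools lay below the control pools and in 7 above. The shares of all tested genes were 6.89% lower, 6.67% higher, 10.5% below and 9.77% above, and the counts of each list that follow are to be read against them. The median log2 fold change was -0.03. Of 11 genes of SREBP processing and turnover, 1 was lower at an unadjusted p under 0.05. This was *Rnf145*, a sterol-responsive ubiquitin ligase, at 3376, 3208 and 3678 in the control pools and 2985, 3004 and 3038 in the mutant pools. Its log2 fold change was -0.18 (95% interval -0.30 to -0.07, limma adjusted p = 0.159). Its groups did not overlap. *Erlin1*, which takes part in sterol-regulated degradation, had a log2 fold change of 0.12 (95% interval -0.03 to 0.27) and overlapped between the groups.

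Among 5 partners of sterol synthesis, the cytochrome b5 genes *Cyb5r3* and *Cyb5b* had log2 fold changes of -0.09 (95% interval -0.19 to 0.01) and 0.05 (-0.05 to 0.15). Of 13 genes of the isoprenoid branches that leave at farnesyl pyrophosphate, 2 were lower and 0 higher. *Coq2*, which builds ubiquinone for mitochondria, was 903, 886 and 869.7 in the control pools and 769, 778 and 768 in the mutant pools. The pools of each group were close together and far from the other group, with a log2 fold change of -0.20 (-0.31 to -0.09, limma adjusted p = 0.133). *Rabggtb* (-0.18) and *Rabggta* (-0.15), subunits of the enzyme that attaches geranylgeranyl groups to RAB proteins, also did not overlap.

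Of 15 genes of sterol transport, storage and efflux, 2 were lower and 2 higher at an unadjusted p under 0.05. *Npc1*, which exports cholesterol from lysosomes, had a log2 fold change of -0.15 (95% interval -0.26 to -0.05) and *Soat1*, which esterifies cholesterol, -0.22 (-0.37 to -0.07). *Lipa*, the lysosomal lipase that frees cholesterol from its esters, had a log2 fold change of 0.12 (0.02 to 0.23). The other higher gene was the lipoprotein receptor *Vldlr* (0.43, groups overlapping), which is named outside the rule of 3 genes a list. Of 22 further fatty acid genes, 3 were lower and 0 higher. *Acsl4*, which activates long polyunsaturated fatty acids, was 696, 703 and 689 in the control pools and 617, 574 and 575 in the mutant pools. Its groups did not overlap, and its log2 fold change of -0.24 (-0.37 to -0.11) had the lowest adjusted p of all 117 members and other lipid genes (0.123 in limma). *Elovl7* was at 73.6 to 93 in the control pools and 50.1 to 56.2 in the mutant pools (-0.56), and *Thrsp* was at 3.10 to 8.84 and at 0 to 1.96, too low for a fold change to be read. Of 19 genes of glycerolipid and phospholipid synthesis, 2 were lower and 1 higher, namely *Chka* (-0.18), *Agpat5* (-0.14) and *Ptdss1* (0.13).

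The median of the sterol branch moved with the choice of pools and of covariates, and that of the fatty acid branch moved less. Under the 15 alternatives, the sterol median ran from -0.20 with log2 *Xist* as a covariate to 0.03 without control pool 2. The fatty acid median ran from -0.11 to -0.06 and was negative in each.

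**Figure D4:**
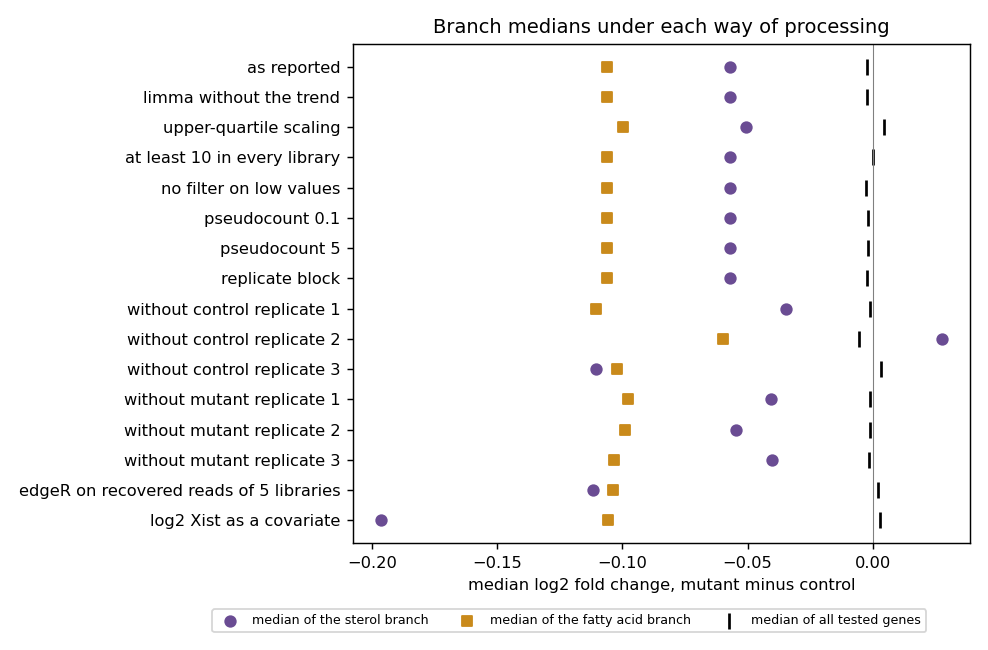
The horizontal axis gives the median log2 fold change (mutant minus control) of the sterol branch (circles), of the fatty acid branch (squares) and of all tested genes (bars), and each line is 1 way of processing the values. The squares stay between -0.11 and -0.06, while the circles reach -0.20 with the *Xist* covariate and 0.03 without control pool 2.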

How the data were processed

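RNA of 6 pooled samples of E11.5dpc lungs (3 control, 3 mutant) was sequenced by the authors on a BGISEQ-500. The submitters' processing notes name Trim Galore, HISAT2, featureCounts, DESeq2 and mm10, without versions. The signal values deposited by the authors are normalized counts, in which the reads of a gene were scaled by 1 size factor per library. The deposited table also holds the authors' own mean, log2 fold changes with standard errors, test statistic (score) and p-values, which were not used. The gene symbols of 27 genes had become dates.

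Groups came from the genotype labels. Log2(normalized count + 1) was compared with limma 3.58.1 in R 4.3.3 (variance trend, no covariates), for genes that reached 1 normalized count in 3 or more libraries. P-values were adjusted by Benjamini-Hochberg, with calls under 0.05. Reads were recovered for 5 of 6 libraries (20197642 to 21276090), with 100% of values whole within a tolerance of 0.01. The values of control pool 3 were also 100% whole multiples of a step, at 0.994. That step was too close to 1 for the rule used, so control pool 3 was left out of edgeR 4.0.16 on the recovered reads. Both tests were tested on simulated data with changes larger than those of any member. That run does not show how well changes as small as those of the members would be found. The members, marker lists and other lipid lists were chosen with earlier results of these data known. All members are named. Of each other lipid list, the 3 genes with the lowest unadjusted p are named, except where a gene is not reported here. Alternatives were limma without the trend, upper-quartile scaling (75th percentile), at least 10 in every library, no filter, pseudocounts of 0.1 and 5, a replicate block and leaving out each pool. The edgeR fit and the log2 *Xist* covariate were added after seeing the data. Promoters were those of RefSeq (GRCm38.p6), and coordinates and exon lengths those of GENCODE M21 (GRCm38).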

Additional observations from a re-analysis of the deposited data

How the results depend on the processing

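Of 480 values of single members under 15 alternatives, 438 kept their direction and their side of the threshold, 41 changed sign and 1 passed the threshold (*Idi1* in edgeR). The fits without the trend, with the replicate block and with other filters cannot change a log2 fold change, so the sign was fixed there. No member passed as reported, so keeping a side meant staying past 0.05. The 438 is therefore not a measure of robustness. Of the 32 members, 17 kept their sign throughout. The number of all genes with an adjusted p under 0.05 was 86 in limma, 8 without the trend, 545 in edgeR on 5 libraries and 1 to 468 with 1 pool left out (1 without control pool 1 or mutant pool 3, 468 without control pool 3). For the sterol branch, genes lower at an unadjusted p under 0.05 numbered 3 as reported and 0 to 9 with 1 pool left out. They numbered 9 in limma without control pool 3, 9 in edgeR, which also lacked that pool, and 6 with the *Xist* covariate. In edgeR 1 sterol gene passed the adjusted threshold, and the sterol median was -0.20 with the covariate. The fatty acid median ran from -0.11 to -0.060 with 1 pool left out, and 1 fatty acid gene was lower without the trend. The causes were not tested.

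Positive values turned negative in edgeR and with the *Xist* covariate, in that order, for *Fads1* (-0.046, -0.073), *Fdps* (-0.070, -0.12), *Msmo1* (-0.064, -0.12), *Mvd* (-0.061, -0.11), *Mvk* (-0.11, -0.21), *Pmvk* (-0.013, -0.047), *Srebf2* (-0.024, -0.058) and *Stard4* (-0.061, -0.22), and with the covariate alone for *Cyp51* (-0.092). Limma without control pool 3, the pool that edgeR also lacked, gave close values, such as -0.045 for *Fads1*, -0.068 for *Fdps* and -0.10 for *Mvk*. These fits leave out the same pool and are not separate checks. *Scap* was 0.0030 under upper-quartile scaling. With 1 pool left out, signs turned for *Dhcr7* (-0.17 to 0.032), *Fads1* (-0.045 to 0.045), *Fdps* (-0.068 to 0.078), *Hmgcs1* (-0.12 to 0.033), *Hsd17b7* (-0.14 to 0.061), *Insig1* (-0.087 to 0.015), *Msmo1* (-0.063 to 0.12), *Mvd* (-0.060 to 0.094), *Mvk* (-0.10 to 0.13), *Pmvk* (-0.039 to 0.049), *Scap* (-0.029 to 0.035), *Sqle* (-0.15 to 0.028), *Srebf2* (-0.022 to 0.060) and *Stard4* (-0.055 to 0.17).

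The replicate numbers are shared between the groups, but deviations of same-numbered pools correlated at -0.019, 0.10 and 0.031, so they were not taken as pairs. With the replicate block, 71 of all genes and 0 members passed the adjusted threshold, and 1 regulator was lower at an unadjusted p under 0.05 in place of 0. Not every control pool correlated best with the mutant pool of its number. With 3 pools a group, the data bound each member's difference no more closely than its interval. That interval is for whole lungs, cells without Cre included, so it does not bound a change within the epithelium alone.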
